A study of Rattus norvegicus with 12 samples.

Results

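miR-143 and miR-145 are 2 miRNAs made from neighbouring hairpins, and they were followed here in rat parotid acinar cells at 4 ages. They were chosen by name: every assay of the qRT-PCR panel whose name, without the species prefix and the arm suffix, was miR-143 or miR-145 was taken. This gave 3 of the 375 miRNA assays, namely the mouse (mmu-miR-143) and rat (rno-miR-143) assays of miR-143 and the mouse assay of miR-145 (mmu-miR-145), for 2 of the 350 miRNA names. The cluster was picked with its difference between the youngest and the oldest age already known, so every difference of a member that shares samples with that comparison is given below as a description and has no p-value. The samples came from albino Sprague Dawley rats at day 20 of gestation (E20) and 5 (P5), 15 (P15) and 25 (P25) days after birth, with 3 samples per age taken from separate litters and no other treatment. Acinar cells, the cells that make and secrete saliva proteins, were cut from parotid sections by laser capture microdissection, and their total RNA was measured with 1 primer set per well. The caps were checked by microscope for other cells, and no marker of cell type was measured on this panel other than miRNAs.

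miRNAs are short RNAs that guide silencing complexes to mRNAs, mostly by pairing of the seed, bases 2 to 8 of the mature strand. miR-143 and miR-145 are known to be cut from 1 shared primary transcript, to be abundant in vascular and visceral smooth muscle and in pericytes, and to favour the contractile state of smooth muscle; transcription of the cluster there is driven by serum response factor with myocardin. They have different seeds and are not of 1 sequence family.

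The sequences are shown because the pair shares a locus but no seed. The rat sequences are from RefSeq on build GRCr8, where the Mir143 hairpin is at chr18:57371349-57371453 and the Mir145 hairpin at chr18:57369983-57370070, both on the minus strand and 1278 bases apart. In the annotation both lie within the span of Carmn, a long noncoding RNA gene known as their host gene. The mature strands read 5′ to 3′, with the seed in capitals:
rno-miR-143-3p: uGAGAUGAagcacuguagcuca
rno-miR-143-5p: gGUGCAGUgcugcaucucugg
rno-miR-145-5p: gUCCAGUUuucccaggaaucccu
rno-miR-145-3p: gGAUUCCUggaaauacuguuc
The names on the panel give no arm. In the naming in use when such panels were made, the plain names stood for the main strands, miR-143-3p and miR-145-5p. These are at chr18:57371373-57371394 and chr18:57370033-57370055. Among the 724 mature rat miRNAs of the table, no other one carried any of these 4 seeds.

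Each well gave a threshold cycle (CT), the PCR cycle at which the signal passes a threshold, and a CT lower by 1 means roughly a doubling of the template. Between 179 and 307 miRNA assays per array had a CT, with the fewest in a P15 sample, and the median CT of an array lay between 31.3 and 34.8. The number was 282 to 306 at E20, 224 to 307 at P5, 179 to 273 at P15 and 202 to 223 at P25. Array medians were 31.9 to 32.3 at E20 and 33.7 to 34.2 at P25, so the median rests on fewer miRNAs at P25 than at E20. The interplate calibrator wells varied little, from 18.3 to 19.0, whereas the small nuclear RNA RNU1A1 ranged from CT 17.8 to 34.6. Levels are therefore given as the array median CT minus the CT of the assay, in log2 units that rise with the level relative to the other miRNAs of that array. The 36 member wells all had a CT, between 24.8 and 34.9, and none was imputed. All 3 assays were kept by the detection filter (at each age, a CT in 2 or more replicates), which left 192 assays to be fitted together. Because primers differ, the level of one assay was not read against that of another.

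miR-145 was higher in every sample taken after birth than at E20, and 1 embryonic sample stood far apart. Its level was -2.97, 4.34 and 4.04 in E20 replicates 1, 2 and 3, and 6.18, 6.58 and 6.10 in the P5 samples. It was 5.28, 7.44 and 7.94 in the P15 samples and 5.97, 6.90 and 6.75 in the P25 samples. The separation from E20 also holds where only E20 replicates 2 and 3 are read, while the 3 postnatal ages overlapped. The mean was 1.80 ± 4.13 (SD, n = 3) at E20, or 4.19 ± 0.21 (SD, n = 2) without E20 replicate 1, and 6.29 ± 0.25 at P5, 6.88 ± 1.41 at P15 and 6.54 ± 0.50 at P25 (SD, n = 3 each). In bulk RNA of this kind, fewer cells of a type and less RNA per cell cannot be told apart.

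miR-143 also had its lowest mean at E20, and its highest mean was at P5. Its step from E20 to P5 was smaller than that of miR-145 only with E20 replicate 1 included. The mouse assay gave 3.37, 2.63 and 1.95 at E20 and 4.26, 5.44 and 3.86 at P5. It gave 2.82, 5.03 and 3.68 at P15 and 3.61, 3.53 and 3.78 at P25. The E20 samples lay below all P5 and all P25 samples, but overlapped with the wide P15 range, whose lowest value belongs to P15 replicate 1, the array with the fewest CT values. The means were 2.65 ± 0.71 at E20, 4.52 ± 0.82 at P5, 3.84 ± 1.11 at P15 and 3.64 ± 0.13 at P25 (SD, n = 3 each).

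The rat assay of miR-143 gave the same order of ages. Its levels were 4.14, 3.04 and 2.79 at E20 and 4.80, 6.36 and 4.74 at P5. They were 2.81, 6.32 and 4.91 at P15 and 3.50, 5.00 and 4.74 at P25. Here E20 overlapped with P15 and with P25, through P15 replicate 1 and P25 replicate 1, and was separate from P5 alone. The means were 3.32 ± 0.72 at E20, 5.30 ± 0.92 at P5, 4.68 ± 1.77 at P15 and 4.41 ± 0.80 at P25 (SD, n = 3 each). Across the 12 samples both miR-143 assays moved together, with Pearson's r = 0.93 and Spearman's rho = 0.83. The difference between their CT values had an SD of 0.489 cycles, the smallest among the 4 miRNAs whose mouse and rat assays both had a CT in every sample, for which the highest was 0.951. They may amplify the same molecules and are not independent replicates.

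**Figure D1:**
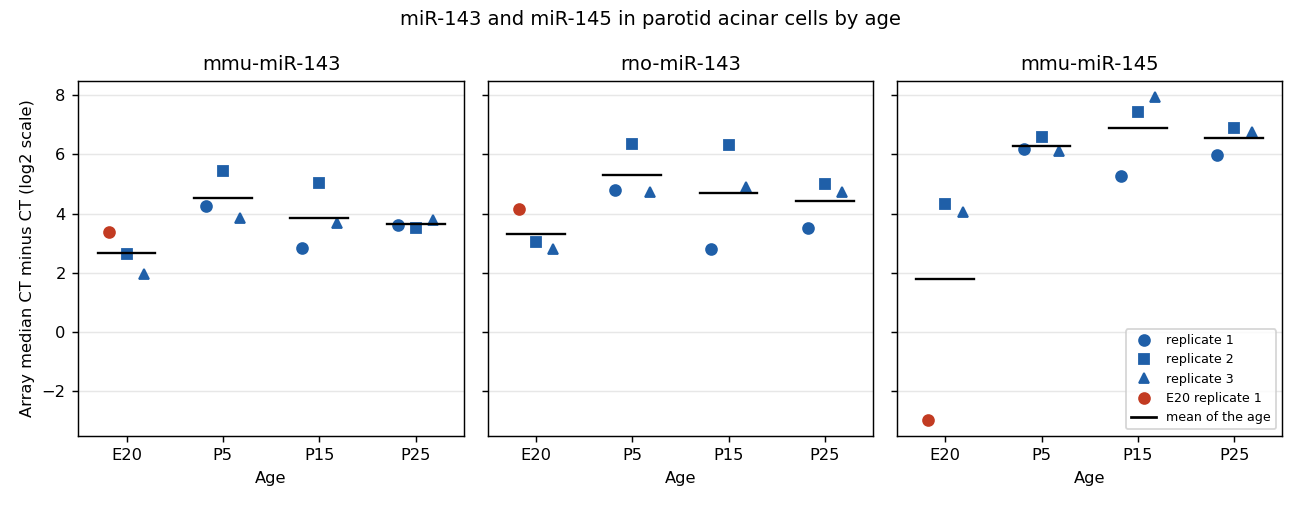
Level of each assay (array median CT minus CT, log2 scale, y axis) in the 3 samples of each age (x axis), with the mean of the age as a line and E20 replicate 1 in red. E20 replicate 1 is at -2.97 for miR-145, below all other samples, but at 3.37 and 4.14, the highest of the 3 E20 samples, for the miR-143 assays.

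The embryonic to postnatal step was read first. From E20 to P5 the estimate of the limma fit over all 12 samples was 1.87 (SE 0.77) for mmu-miR-143, 1.97 (SE 0.91) for rno-miR-143 and 4.48 (SE 1.43) for miR-145 on the log2 scale. Without E20 replicate 1 the corresponding values were 2.23 (SE 0.87), 2.38 (SE 1.03) and 2.10 (SE 0.89), so that the wider step of miR-145 was seen only with that sample included. The median change of all 192 assays in this step was -0.18. All 3 member assays had every P5 value above every E20 value, as did 6.95% of the assays with a CT in all samples of both ages. From E20 to P25 the estimates were 0.99 (SE 0.77), 1.09 (SE 0.91) and 4.74 (SE 1.43) in the same order, and 1.35 (SE 0.87), 1.50 (SE 1.03) and 2.35 (SE 0.89) without E20 replicate 1. With the median of the assays detected in all samples as reference, the E20 to P25 estimates were 1.22, 1.33 and 4.97. On CT values with no array reference the miR-143 estimates turned to -0.74 and -0.63, while that of miR-145 was 3.02. As a fold, the miR-145 difference was 26.7 with all samples and 5.11 without that sample. mmu-miR-143 and miR-145 did not overlap between E20 and P25 and were higher at P25, as were 21.8% of the assays measured in all samples of both ages, and rno-miR-143 overlapped.

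After birth, neither fitted step (P5 to P15 and P15 to P25) gave a member a difference larger than its SE. P5 to P25 was not fitted. Every P5 value of mmu-miR-143 (3.86 to 5.44) lay above every P25 value (3.53 to 3.78), while rno-miR-143 and miR-145 overlapped. The share of all assays without overlap was not counted between these ages. P5 to P15 is the comparison that shares no sample with the one the cluster was picked on, and the difference was -0.68 (SE 0.77, 95% interval -2.31 to 0.96) for mmu-miR-143 and -0.62 (SE 0.91, 95% interval -2.55 to 1.31) for rno-miR-143. It was 0.60 (SE 1.43, 95% interval -2.45 to 3.65) for miR-145. The SEs rest on the spread over all 12 samples, so E20 and P25 enter them and the p-values. Without E20 replicate 1 the SE for miR-145 was 0.79 (95% interval -1.10 to 2.30). With all 12 samples the adjusted p-values (limma, Benjamini-Hochberg over 192 assays) were 0.879 for both miR-143 assays and 0.934 for miR-145. In this comparison 0% of the 192 assays were called at an adjusted p under 0.05, and 6.25% had an unadjusted p under 0.05. The 3 assays overlapped between P5 and P15, and 8.03% of the assays measured in all samples of both ages did not. The intervals span changes of more than 2-fold in either direction for rno-miR-143 and miR-145, so the data do not show that the levels stayed level. From P15 to P25 the estimates were -0.20 (SE 0.77), -0.27 (SE 0.91) and -0.34 (SE 1.43), and the 3 assays overlapped again, against 8.8% of assays without overlap.

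The ratio of miR-143 to miR-145 was computed within each sample as the CT of miR-145 minus the CT of miR-143, which cancels the array reference. Its absolute size depends on the primers, so only its change from sample to sample was read. With the mouse assay of miR-143 the log2 ratio was 6.34, -1.70 and -2.09 at E20 and -1.92, -1.14 and -2.24 at P5. It was -2.46, -2.41 and -4.25 at P15 and -2.36, -3.38 and -2.97 at P25. Leaving out E20 replicate 1, all 6 samples of P15 and P25 thus had a lower ratio with this assay than the 5 remaining samples of E20 and P5. The nearest values were -2.36 (P25 replicate 1) and -2.24 (P5 replicate 3). The separation did not hold with the rat assay, where P15 replicate 2 (-1.12) lay above E20 replicates 2 and 3 (-1.30 and -1.25). With the mouse assay the mean ratio was -1.89 ± 0.27 at E20 (SD, n = 2), -1.77 ± 0.57 at P5, -3.04 ± 1.05 at P15 and -2.90 ± 0.51 at P25 (SD, n = 3 each).

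The P5 to P15 difference in this ratio was -1.28, with every P15 sample below every P5 sample, and without P15 replicate 3 it was -0.67. The exact two-sided permutation test gave p = 0.1, the smallest that 3 samples against 3 can give, and 0.2 after Benjamini-Hochberg adjustment over the 2 miR-143 assays. With the rat assay the log2 ratio was 7.11, -1.30 and -1.25 at E20, -1.39, -0.21 and -1.36 at P5, -2.47, -1.12 and -3.03 at P15, and -2.47, -1.90 and -2.01 at P25. Here P15 replicate 2 lay among the P5 samples, and the difference of -1.22 had an exact permutation p of 0.3. Between samples of equal replicate number, taken as pairs for these ages from the values alone, the ratio was lower at P15 in 3 of 3 pairs with both assays, the differences being -0.54, -1.28 and -2.01 with the mouse assay and -1.09, -0.90 and -1.67 with the rat assay. With the mouse assay any pairing would give 3 of 3, since every P15 sample lay below every P5 sample. The paired exact sign-flip test gave p = 0.25 for each miR-143 assay, the smallest that 3 pairs allow. From E20 to P25 the ratio fell by 3.75 with the mouse assay and by 3.65 with the rat assay, and without E20 replicate 1 the differences were -1.01 and -0.86. From E20 to P5 without that sample they were 0.13 and 0.29, and from P15 to P25 with all samples 0.14 and 0.08. Both miR-143 assays thus gave the lower ratio at P15 than at P5, but neither difference passed the tests used, which with 3 samples or 3 pairs cannot go under 0.05.

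**Figure D2:**
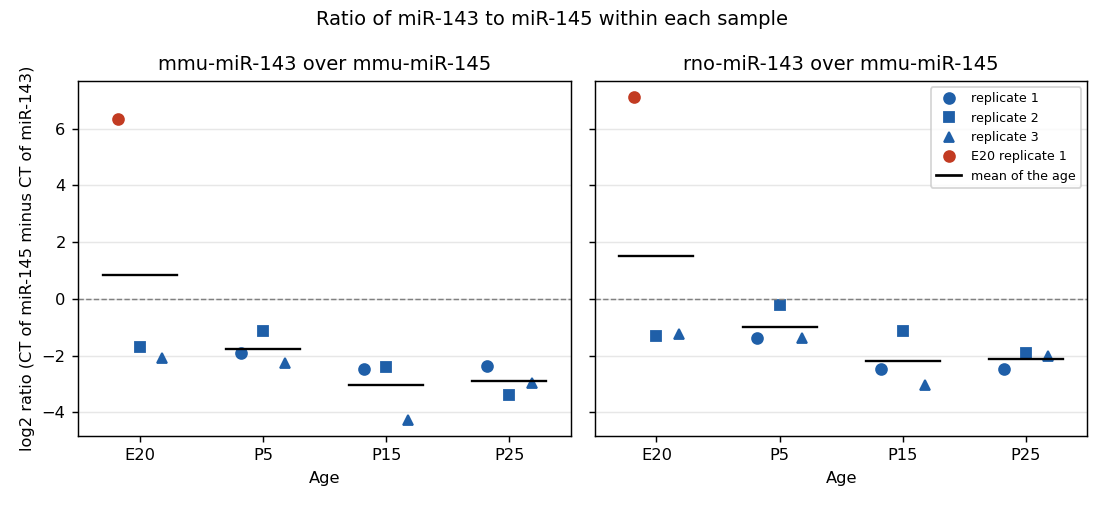
Log2 ratio of miR-143 to miR-145 (CT of miR-145 minus CT of miR-143, y axis) in each sample by age (x axis), for the mouse and the rat assay of miR-143, with the mean of the age as a line. E20 replicate 1, in red, is at 6.34 and 7.11, and all other samples lie below 0, between -4.25 and -0.21.

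E20 replicate 1 was examined over the whole panel, since it decided the size of the miR-145 difference. In this sample miR-145 had a CT of 34.9 against 27.9 and 28.3 in the other E20 samples, and the miR-143 assays had CT values of 28.6 and 27.8. Relative to the array median, miR-145 deviated by -7.16 from the mean of the other E20 samples, whereas mmu-miR-143 lay 1.08 and rno-miR-143 1.22 above it. Over the 263 assays with a CT in all 3 E20 samples, the median deviation of this sample was 0.43, and the 10th and 90th percentiles were -1.35 and 1.62. miR-145 was the only 1 of the 263 that far from the others, and the next lowest was rno-miR-346 at -3.81. Repeating this for each of the 12 samples gave 2319 deviations, of which 1, that of miR-145 in E20 replicate 1, was so large. The low value was thus that of a single well, and the panel holds no rat assay of miR-145 to set beside it.

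**Figure D3:**
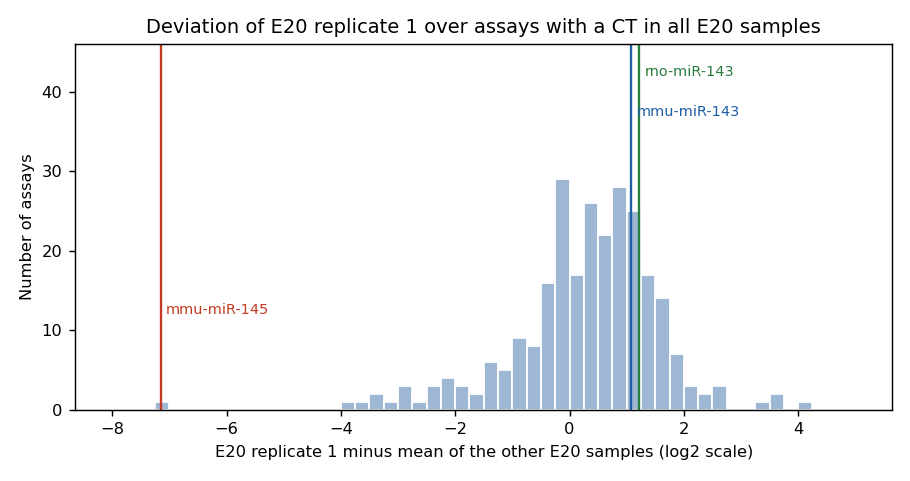
Histogram over the 263 assays with a CT in all E20 samples, with the deviation of E20 replicate 1 from the mean of the other E20 samples on the x axis (log2 scale) and the number of assays on the y axis. mmu-miR-145 stands alone at -7.16, and the miR-143 assays at 1.08 and 1.22 lie within the bulk.

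How closely both miRNAs followed each other across samples also turned on that sample. Over all 12 samples the level of mmu-miR-143 correlated with that of miR-145 with Pearson's r = 0.38 and Spearman's rho = 0.66. For rno-miR-143 they were r = 0.39 and rho = 0.82. The samples differ in age and share the array median of each array, and the cluster was picked with its age difference known, so these values are descriptions with no p-value. Without E20 replicate 1, r was 0.72 for mmu-miR-143 and 0.80 for rno-miR-143 (n = 11), while rho was 0.61 and 0.85, so that for mmu-miR-143 the rank correlation was no higher than with all samples. With the median of the assays detected in all samples as reference, rho for mmu-miR-143 was 0.48, and 0.35 without E20 replicate 1.

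Leaving out the 2 samples farthest from the median of the miR-143 level gave r = 0.37 for mmu-miR-143 and 0.41 for rno-miR-143 (n = 10), and leaving out E20 replicate 1 as well gave 0.70 for both (n = 9). With each age's mean taken off, r was -0.18 for mmu-miR-143 and -0.02 for rno-miR-143, and without E20 replicate 1 it was 0.61 and 0.83. The samples of 1 age that were high in miR-143 were then mostly high in miR-145, as P15 replicates 2 and 3 against P15 replicate 1, the array with the fewest CT values. At P25, replicate 2 was highest in miR-145 (6.90) and in rno-miR-143 (5.00) but lowest in mmu-miR-143 (3.53). With the 11 samples other than E20 replicate 1, miR-145 had the highest Pearson's r to each miR-143 assay of all other miRNAs with a CT in every sample (120 assays, members included). Others were close in these samples: r to mmu-miR-143 was 0.70 for rno-miR-146b, and r to rno-miR-143 was 0.79 for miR-21. With all 12 samples miR-145 held places 31 and 46. The reverse did not hold: ordered by r to miR-145 in the 11 samples, rno-miR-143 held place 12 and mmu-miR-143 place 23.

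The spread of the ratio was then set beside that of other miRNAs made from 1 genomic cluster. Of 29 such pairs listed, 14 had a CT for both assays in every sample. The log2 ratio of miR-143 to miR-145 had an SD of 2.66 over the 12 samples, above all 13 others, which ran from 0.484 to 2.27 with a median of 1.01. Without E20 replicate 1 its SD was 0.844, and 5 of the 13 others were lower (median 1.06). In each of these 5 the later mean CT of the pair was below that of miR-143 with miR-145 (29.5). Of the wider pairs this held only for miR-200c with miR-141 (29.1). The others held an assay with a later mean CT, from 30.7 to 34.4. With all samples the tightest were miR-23a with miR-27a at 0.484 and miR-23b with miR-27b at 0.493. The widest of the others was miR-127 with miR-433, both of the imprinted Dlk1-Dio3 region, at 2.27. For comparison, the median SD over all 7135 pairs of different miRNAs was 1.67, and 90.7% of them had a smaller SD than miR-143 with miR-145, or 7.46% without E20 replicate 1. Pairs share assays, and these shares are descriptions.

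**Figure D4:**
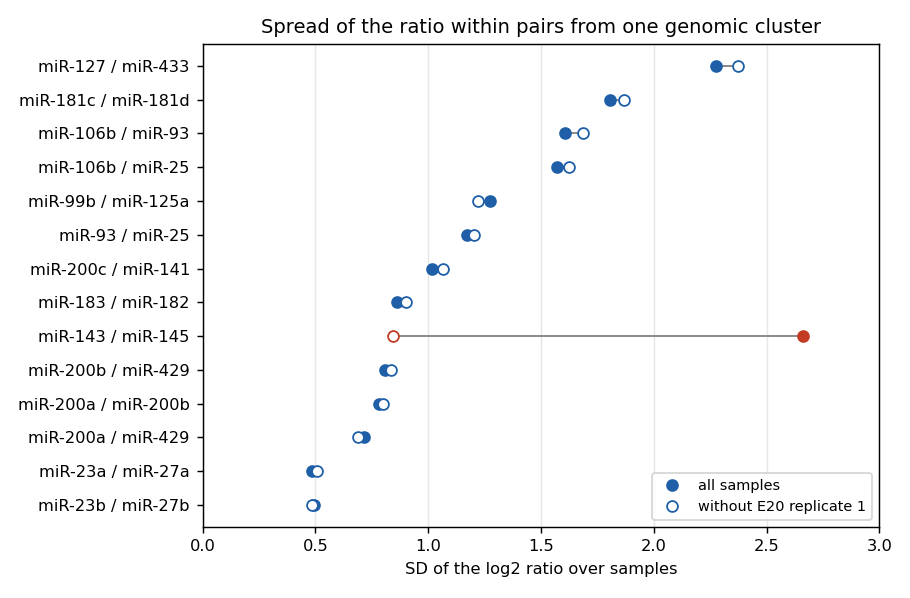
SD over samples of the log2 ratio (x axis) for 14 pairs of miRNAs from 1 genomic cluster (y axis), with all 12 samples (filled) and without E20 replicate 1 (open). The pair miR-143 with miR-145, in red, moves from 2.66 to 0.844, and the other pairs move far less.

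The assays whose course over all 12 samples was most like that of the members were named by Pearson's r, as a description. For mmu-miR-143 they were rno-miR-146b (0.69), miR-141 (0.66), miR-26b (0.63), miR-200a (0.63) and miR-181a (0.62). For rno-miR-143 they were miR-26a (0.78), miR-429 (0.75), miR-21 (0.72), rno-miR-146b (0.72) and miR-141 (0.72). For miR-145 they were miR-195 (0.65), miR-669a (0.60), miR-148a (0.58), miR-26b (0.57) and miR-99a (0.55), and without E20 replicate 1 they were miR-429 (0.91), rno-miR-146b (0.91), miR-200a (0.90), miR-99a (0.88) and miR-141 (0.85). miR-141, miR-200a and miR-429 belong to the miR-200 family, which is known for its expression in epithelium. The mean of each of them was lowest at E20, and none passed the test from E20 to P25. Between these ages the samples of miR-429 overlapped, while those of miR-200a and miR-141 were higher at P25 without overlap. The latter held for 21.8% of the assays measured in all samples of both ages. The mean level of miR-200a was 2.28 ± 1.22 at E20 and 4.88 ± 0.47 at P25, that of miR-141 2.75 ± 0.70 and 4.77 ± 0.96, and that of miR-429 3.47 ± 1.13 and 4.47 ± 0.91 (SD, n = 3 each).

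Since miR-143 and miR-145 are best known from smooth muscle, the other miRNAs of muscle and stroma were read beside them. The list for smooth muscle and pericytes held 9 assays other than the members, of which 8 were tested. From E20 to P25 none of these was called higher and 2 were called lower, beside 12% of all 192 assays called, with 7.81% called lower, and their median change was -0.43 beside 0.15 over all assays. The muscle miRNA miR-133b fell by 4.07 (-4.07, SE 1.20, limma adjusted p = 0.0376) and miR-1 by 3.28 (-3.28, SE 0.92, adjusted p = 0.0331), which are also markers of striated muscle. Without E20 replicate 1 their estimates were -4.19 and -3.40 and neither was called (adjusted p = 0.0836 and 0.0604). miR-133a differed by -4.15 (SE 1.61) and did not pass (adjusted p = 0.10), and miR-21, miR-24 and miR-26a, which many cell types hold, had estimates of 0.15, 0.14 and 1.08 and did not pass either. The highest estimate of the list was that of miR-222, 3.14 (SE 1.16), in the direction of the members, and it did not pass (adjusted p = 0.0857), while that of miR-221 was -1.01. The summed level of the list (linear scale, relative to the array median) was 101 to 171 at E20 and 68.7 to 167 at P25, so these ranges overlapped. Such sums are weighted by the assays with the lowest CT, here mostly miR-24, which made up 29.4% to 66.7% of them. In E20 replicate 2, which gave the 29.4%, the level of miR-133b (5.56) was above that of miR-24 (5.24).

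The level of miR-133b went from 4.34, 5.56 and 3.82 at E20 to 1.56, -0.11 and 0.07 at P25, opposite to the members. In the striated muscle list 3 assays were tested, miR-1, miR-133a and miR-133b, and 2 were called lower, as above. Its summed level was 20.5 to 74.8 at E20 and 1.12 to 3.73 at P25, and the striated muscle miRNA miR-206 had a CT in all E20 samples and in no P25 sample. Fewer assays had a CT at P25 (202 to 223 per array) than at E20 (282 to 306). The share of all assays lost in the same way is not given. In the list for fibroblasts and mesenchyme 3 assays were tested and 1 was called lower, miR-214, with a change of -4.53 (SE 0.91, adjusted p = 0.00466), and it was also called without E20 replicate 1 (-4.56, adjusted p = 0.0212). miR-199a-5p, of the same primary transcript, had an estimate of -2.71 (SE 1.17) and did not pass (adjusted p = 0.139). The summed level of that list was 28.1 to 47.5 at E20 and 4.92 to 6.40 at P25.

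**Figure D5:**
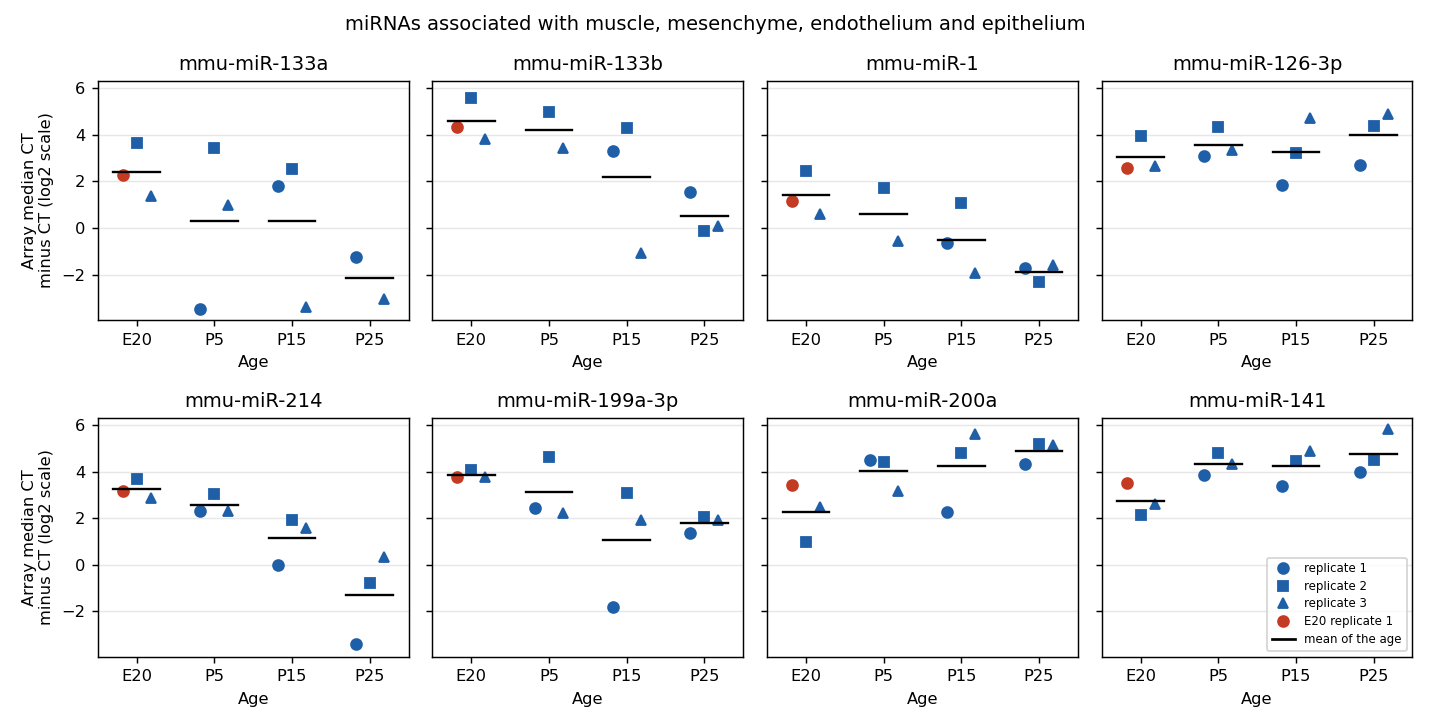
Level (array median CT minus CT, log2 scale, y axis) by age (x axis) of 8 miRNAs associated with muscle (miR-133a, miR-133b, miR-1), endothelium (miR-126-3p), mesenchyme (miR-214, miR-199a-3p) and epithelium (miR-200a, miR-141), with the mean of the age as a line and samples without a CT left out. miR-133b and miR-214 lie lower at P25 than at E20 in every sample. E20 replicate 1, in red, lies between or near the other E20 samples for the miRNAs of muscle, endothelium and mesenchyme. It is the highest E20 sample for miR-200a (3.41 against 0.98 and 2.46) and miR-141 (3.52 against 2.14 and 2.60).

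The endothelial miRNA miR-126-3p had an estimate of 0.93 (SE 0.88, adjusted p = 0.474) from E20 to P25, with levels of 2.56, 3.93 and 2.66 at E20 and 2.71, 4.37 and 4.88 at P25 that overlapped. Of 5 leukocyte assays and 2 nerve assays tested, 0 were called in either direction, with median changes of -0.52 and -1.52, and no erythrocyte assay was tested. The estimates farthest from 0 in these lists were those of miR-150 (1.78) and miR-146a (1.48) for leukocytes and miR-124 (-2.72) and miR-128 (-0.32) for nerve. In the epithelial list 0 of 9 assays were called, and the median change was 2.02, with the highest estimates for mmu-miR-200c (2.75) and miR-200a (2.60). In the same list miR-205 and miR-203, both known from stratified epithelium, had estimates of -2.23 (adjusted p = 0.0626) and -2.13. From P5 to P15 no assay of any list was called. In E20 replicate 1 the summed level of the smooth muscle list without its members was 171 against 128 and 101 in the other E20 samples, or 81.5 against 90.5 and 41.9 without miR-24. The sum of the striated muscle list was 30.4 against 74.8 and 20.5, and that of the mesenchymal list was 30.6 against 47.5 and 28.1. miR-126-3p had a level of 2.56 there against 3.93 and 2.66. In the sample where miR-145 was low, the muscle sums without miR-24 and the mesenchymal sum lay between those of the other E20 samples, and miR-126-3p was marginally lowest. The part of any of these cell types in the levels of miR-143 and miR-145 was not tested.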

How the data were processed

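Members and lists were chosen with earlier results of these data known. The authors reverse transcribed total RNA of laser-captured acinar cells, ran the Exiqon Mouse&Rat panel I by qRT-PCR, and deposited CT values, which are a logarithmic score and had not been normalized; the software that called the CT is not given in the sources used here. A CT under 40 counted as detected. A level is the array's median CT, over its detected miRNAs, minus the assay's CT. The 192 assays with a CT in 2 or more replicates of each age were kept, and 122 of 2304 wells were imputed from 10 nearest neighbours, none of a member. Age means were fitted over all 12 samples with limma 3.58.1 in R 4.3.3, with Benjamini-Hochberg adjustment at 0.05, and the procedure was tested on simulated data. Ratios were compared by exact permutation tests, with sign flips for pairs, in Python 3.11.15 with numpy 2.4.6. The planned permutation p-values of the correlation are not given, since free permutation ignores age. The paired rat ratio and the sum without miR-24 were added after seeing the data. Depth is unknown for PCR arrays, and the number of samples limits the precision.

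Replicate numbers are shared by the ages. Over 120 assays, deviations from the age means correlated above 0.1 between samples of equal number at P5, P15 and P25 in 9 of 9 cases (0.126 to 0.563). Pairing by number was taken for these ages from the values alone. Correlations between samples of unequal number are not given, so these values cannot show that equal numbers mark pairs. The pairing was used in the sign-flip test of the ratio and in the replicate block of the alternatives. The main limma fit and the permutation test of the ratio were unpaired. With E20, 1 of 9 was above 0.1 (-0.234 to 0.123). No sign-flip test used E20, but the replicate block covered all samples. Named were the members, the 5 assays most correlated with each, and of each list the 2 largest E20 to P25 changes, with the miR-126 and miR-133 assays; others of the lists, and miR-346, were named after their values were seen. Alternatives were the array reference, the filter, the treatment of missing values, the CT limit, a block for the replicate number, and leaving out each sample.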

Additional observations from a re-analysis of the deposited data

How the results depend on the processing

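The P5 to P15 difference of no member passed the test under any of 23 alternatives, 12 of which left out 1 sample. Its direction turned for mmu-miR-143 (1.01) and rno-miR-143 (1.07) with the small nuclear RNAs as reference, for miR-145 without a reference (-0.32), and for rno-miR-143 without P15 replicate 1 (0.32). The replicate block left the estimates at -0.68, -0.62 and 0.60, gave adjusted p-values of 0.836 for both miR-143 assays and 0.868 for miR-145 with limma, a paired exact sign-flip p of 0.25 for the ratio, the smallest 3 pairs can give, and changed no member's call. Leaving out 1 sample, the differences ran from -1.27 to -0.17 for mmu-miR-143, from -1.44 to 0.32 for rno-miR-143, from 0.07 to 1.40 for miR-145 and from -1.59 to -0.67 for the ratio, where P15 replicate 3 gave the -0.67.

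The E20 to P25 difference was 1.80 for mmu-miR-143 and 1.91 for rno-miR-143 with the small nuclear RNAs as reference and -0.74 and -0.63 without one, and for mmu-miR-143 it was 0.25 with CT values above 35 taken as missing. Leaving out 1 sample it ran from 0.64 to 1.35 for mmu-miR-143, from 0.80 to 1.55 for rno-miR-143, from 2.35 to 6.00 for miR-145 and from -5.22 to -1.01 for the ratio, with E20 replicate 1 giving the 2.35 and the -1.01. For miR-145 it stayed above 0 in all 23 alternatives. The number of assays called, 23, was 40 and 35 with the median and mean of the assays detected everywhere as reference, 0 with the small nuclear RNAs (limma, 2 at an unadjusted p under 0.05), 6 with detection in all samples required, 10 with missing wells at CT 40, 11 with the limit of CT 35, and 11 to 39 with 1 sample left out. The P5 to P15 count was 0 throughout.

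Pearson's r of mmu-miR-143 with miR-145 was 0.38 over all samples, 0.72 without E20 replicate 1 and 0.37 without the 2 samples farthest from the median. With all samples it was 0.48 with the median of the assays detected everywhere as reference, 0.26 without a reference and 0.79 with the small nuclear RNAs. In settings chosen after seeing the data, all without E20 replicate 1, it was 0.70 without the 2 farthest samples as well, 0.64 with the median of the assays detected everywhere, 0.98 with the small nuclear RNAs and 0.84 without a reference. The spread of the ratio was 0.844 without E20 replicate 1. The cause of these shifts was not tested; the small nuclear RNAs varied from array to array far more than the calibrator. High CT values are less precise, and that of miR-145 in E20 replicate 1 was 34.9. Whether precision had a part in its low level was not tested.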
